A study of Mus musculus with 6 samples.

Results

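The 9 genes described here are the receptor Gpr3, the adenylate cyclase Adcy3, the phosphodiesterase Pde3a, the peptide ligand Nppc and its receptor Npr2, the cell cycle regulators Wee2, Cdc25b and Cdc25c, and the kinase Mos. They were taken by gene symbol from a table of 27098 genes as a group that governs cAMP, cGMP and the meiotic arrest of the oocyte. All 9 had exactly 1 row in the table, and all 9 were among the 17475 genes with enough counts to be tested. RNA was sequenced from ovaries of mice aged 3 days, kept for 2 h in DMEM/F12 medium with 1% antibiotics and 2% platelet-rich plasma (PRP, 3 libraries) or in the same medium without PRP (control, 3 libraries). No genotype or strain is named for either group, no control with thrombin or another plasma is labelled, and the design text calls the PRP human and activated by thrombin. How the replicates arose is not labelled, so each p-value reflects spread among these 6 libraries, which may be technical.

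A mammalian oocyte enters meiosis before birth and then stops in prophase until ovulation. In grown follicles this stop rests on high cAMP inside the oocyte. The constitutively active receptor GPR3 drives a Gs protein and adenylate cyclase in the oocyte membrane, and the phosphodiesterase PDE3A degrades the cAMP they make. C-type natriuretic peptide, the product of Nppc, activates the guanylate cyclase receptor NPR2 on follicle cells, and the cGMP formed passes through gap junctions into the oocyte and inhibits PDE3A. High cAMP keeps protein kinase A active, which in mouse oocytes favours WEE2, a kinase that inhibits CDK1, over CDC25B, a phosphatase that activates it. MOS activates the MAPK cascade once meiosis resumes. The comparison addresses how these transcripts stood after brief exposure to PRP in an ovary that holds mostly primordial follicles, whose oocytes are small and far from resuming meiosis.

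Promoter windows of 4 of the genes are shown. Gpr3 stands at the head of cAMP synthesis, Nppc and Npr2 are the ligand and receptor with the largest log2 fold change and the only blocked interval above 0, and Wee2 stands for the kinases of the oocyte. Each runs 5′ to 3′ on the gene's strand from 250 bases before to 50 bases after an annotated start (RefSeq, GRCm38.p6). Capitals mark 4 short motifs on either strand: the short form of the cAMP response element (TGACG), the E-box (CANNTG), the GC box (GGGCGG) and the TATA box (TATAAA).
Gpr3, chr4:133212487-133212786, minus strand: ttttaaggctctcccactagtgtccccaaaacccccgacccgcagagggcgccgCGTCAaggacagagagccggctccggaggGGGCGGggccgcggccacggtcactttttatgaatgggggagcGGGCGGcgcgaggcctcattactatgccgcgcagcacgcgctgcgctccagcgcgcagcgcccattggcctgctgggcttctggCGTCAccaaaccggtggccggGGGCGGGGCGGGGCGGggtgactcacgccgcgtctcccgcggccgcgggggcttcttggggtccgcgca
Nppc, chr1:86670524-86670823, minus strand: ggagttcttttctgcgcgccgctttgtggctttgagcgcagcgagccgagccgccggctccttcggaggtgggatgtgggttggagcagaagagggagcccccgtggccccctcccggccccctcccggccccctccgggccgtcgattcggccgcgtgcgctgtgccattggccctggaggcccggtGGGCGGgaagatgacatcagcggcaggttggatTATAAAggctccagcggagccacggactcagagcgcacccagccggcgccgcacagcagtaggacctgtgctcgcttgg
Npr2, chr4:43631685-43631984, plus strand: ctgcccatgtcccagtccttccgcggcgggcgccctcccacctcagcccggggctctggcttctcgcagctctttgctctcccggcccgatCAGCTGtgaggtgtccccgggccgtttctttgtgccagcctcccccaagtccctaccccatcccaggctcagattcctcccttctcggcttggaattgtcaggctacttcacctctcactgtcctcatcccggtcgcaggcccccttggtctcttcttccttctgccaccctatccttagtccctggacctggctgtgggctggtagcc
Wee2, chr6:40442613-40442912, plus strand: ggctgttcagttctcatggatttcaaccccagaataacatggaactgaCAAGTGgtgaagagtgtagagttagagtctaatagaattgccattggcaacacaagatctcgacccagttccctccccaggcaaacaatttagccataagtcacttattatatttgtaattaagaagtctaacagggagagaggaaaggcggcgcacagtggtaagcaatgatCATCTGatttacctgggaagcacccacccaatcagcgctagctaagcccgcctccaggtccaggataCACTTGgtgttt

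Windows were on file for 6 of the 9 genes (Gpr3, Adcy3 with a pair of starts, Nppc, Npr2, Wee2 and Cdc25b). None of them held the full cAMP response element (TGACG followed by TCA), which was present in 1.79% of 32817 mouse windows of the same length. The short form occurred at 2 places in Gpr3 and at 1 place in Cdc25b, and 20.8% of all windows held it. Gpr3 had 5 GC boxes, 3 of them in a run where each shares a base with the next, and 72.0% GC. Wee2 had 3 E-boxes, no GC box and 46.0% GC, where 72.3% of all windows held an E-box and 35.6% a GC box. Nppc had 1 TATA box, found in 13.6% of all windows, and 1 GC box. Npr2 had 1 E-box and no match to the other motifs. These matches describe letters in the windows and say nothing of binding. The Npr2 and Wee2 windows lie wholly inside the gene spans given below, and do not show the upstream end of either gene.

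Library totals ran from 36037111 to 36568367 counts in PRP and from 35568000 to 35825931 in control. Oocyte markers were plentiful in every library, with all 17 genes of the list detected. Their summed level was 4168 to 6259 CPM (counts scaled to a common library size with TMM factors) in PRP and 3875 to 5564 CPM in control. The germ cell helicase gene Ddx4 averaged 86.0 ± 4.5 CPM in PRP and 84.1 ± 4.3 CPM in control, and the granulosa factor Foxl2 averaged 187 ± 10 CPM in PRP and 176 ± 20 CPM in control (SD, n = 3). Zp3, of the egg coat, averaged 390 ± 138 CPM in PRP and 327 ± 104 CPM in control, and Amh, of growing follicles, averaged 51.8 ± 12.4 CPM in PRP and 43.9 ± 12.3 CPM in control. Zp2, also of the egg coat, and Zp3 passed with the replicate block in robust edgeR alone, at adjusted p = 0.0331 and 0.0411. Without robust estimation these were 0.114 and 0.14, and in limma-voom 0.0513 and 0.0669. Control 3 carried red blood cell transcripts, with 598 CPM of Hbb-bs where the PRP libraries had 47.5 to 76.1 CPM and the other control libraries 40.5 and 69.2 CPM. In RNA of whole ovaries, a lower level can come from fewer cells of a type or from less RNA per cell, and these cannot be told apart.

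Per length of merged exon, Npr2 stood highest of the 9 genes and Cdc25c lowest. Averaged over the 6 libraries, levels per kilobase of merged exon were 19.3 CPM for Npr2, 13.9 for Cdc25b, 7.47 for Wee2, 4.94 for Pde3a, 4.91 for Mos, 4.13 for Adcy3, 2.43 for Nppc, 2.02 for Gpr3 and 1.69 for Cdc25c. Many neighbours in that order overlapped across libraries. Npr2 at 16.1 to 21.98 CPM per kilobase overlapped Cdc25b at 9.29 to 17.8, and Cdc25b overlapped Wee2 at 5.69 to 9.36 only at its lowest library. Pde3a, Mos and Adcy3 together spanned 3.65 to 5.73, and Nppc, Gpr3 and Cdc25c spanned 1.18 to 3.22. The lowest Adcy3 value lay above the highest Nppc value, and the lowest Wee2 value lay below the highest Pde3a value. Among 16062 tested genes with an exon length, Npr2 stood at the 81.2th percentile, Cdc25b at the 73.6th and Wee2 at the 57.4th, with Gpr3, Nppc and Cdc25c between the 28.7th and the 33.6th.

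**Figure D1:**
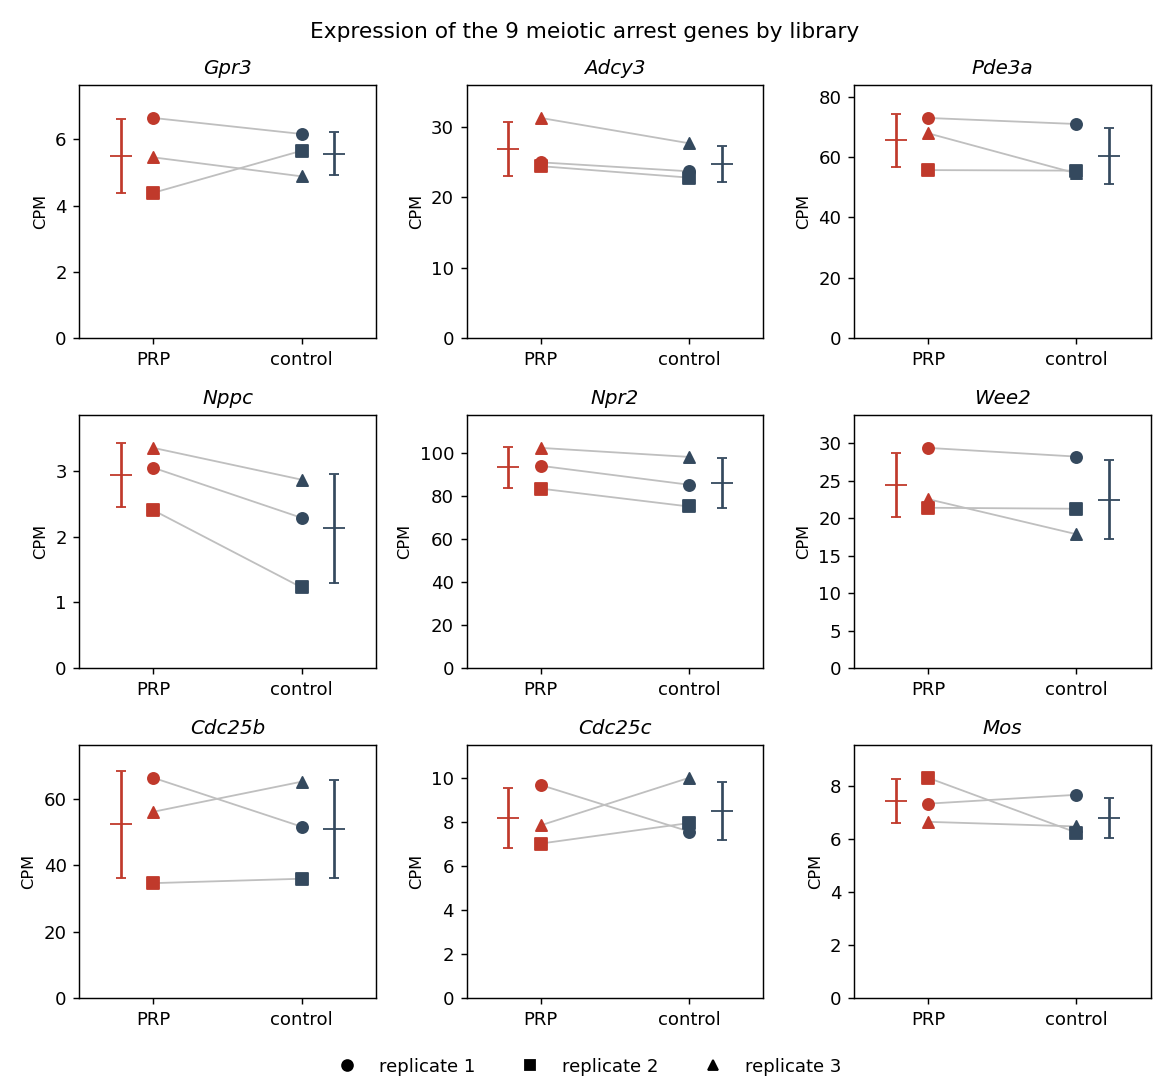
Expression of each gene in CPM (vertical axis, from 0) in the 3 PRP libraries (left, red) and the 3 control libraries (right, dark), with symbols for the replicate number, grey lines joining equal numbers, and bars for the mean ± SD. The groups overlap in all 9 genes, and in Adcy3, Nppc, Npr2 and Cdc25b replicate 2 is the lowest library of both groups.

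None of the 9 genes passed an adjusted p of 0.05 in PRP against control, in a table where 0% of 17475 genes passed (edgeR quasi-likelihood test, Benjamini-Hochberg adjustment). Their adjusted p was 0.9998 in each case, and none had an unadjusted p under 0.05, as 3.19% of all tested genes did. DESeq2 and limma-voom called none of them either. The PRP and control libraries overlapped in all 9 genes, whereas the groups did not overlap in 9.21% of all tested genes. Of the 9 log2 fold changes, 7 lay above 0, with a median of 0.12, against 50.4% above 0 and a median of 0.00 over all genes tested.

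The replicate numbers were taken to pair the libraries, since same-numbered libraries deviated together over all genes. The blocked fits use the same counts that chose this pairing. With the replicate number as a block, 0 of the 9 genes passed over all genes tested, where 0.12% of the tested genes did (21 of 17475). Npr2 alone had an unadjusted p under 0.05 there, higher in PRP, and 5.31% of all tested genes met the same condition. Within equal replicate numbers, 5 of the 9 genes (Adcy3, Pde3a, Nppc, Npr2 and Wee2) were higher in PRP in 3 of 3 pairs, as were 16.8% of all tested genes. Markers of some cell types lay the same way, and those of others did not. Of the oocyte markers 14 of 17 had a log2 fold change above 0 and 11 were higher in PRP in 3 of 3 pairs, and their mean log2 level differed by 0.081, 0.11 and 0.18 in pairs 1 to 3. Of the stromal fibroblast markers 9 of 10 were higher in PRP in every pair, with a summed level of 8429 to 10240 CPM in PRP and 7827 to 9736 CPM in control. The same held for 6 of 8 surface epithelium markers (439 to 530 CPM in PRP, 413 to 458 CPM in control) and 4 of 8 smooth muscle and pericyte markers (311 to 389 CPM in PRP, 268 to 376 CPM in control). Among the surface epithelium markers Krt19, a keratin gene, passed with the block in robust edgeR (log2 fold change 0.36 ± 0.06, adjusted p = 0.0331) and not in limma-voom (0.0779) or without robust estimation (0.12). In blocked robust edgeR, its adjusted p was 0.0276 with libraries scaled to the oocyte markers. It was 0.0871 to 0.319 with 1 replicate left out. Endothelial markers summed to 330 to 418 CPM in PRP and 341 to 400 CPM in control, and leukocyte markers to 58.7 to 66.8 CPM in PRP and 51.9 to 77.1 CPM in control. In every pair, 2 of 8 endothelial markers were higher in PRP and 1 was lower. For the 8 leukocyte markers these counts were 2 and 2, and for the 12 granulosa markers 0 and 3. No list had a marker at 0 in all libraries, and the part of cell makeup in the members' differences was not tested.

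**Figure D2:**
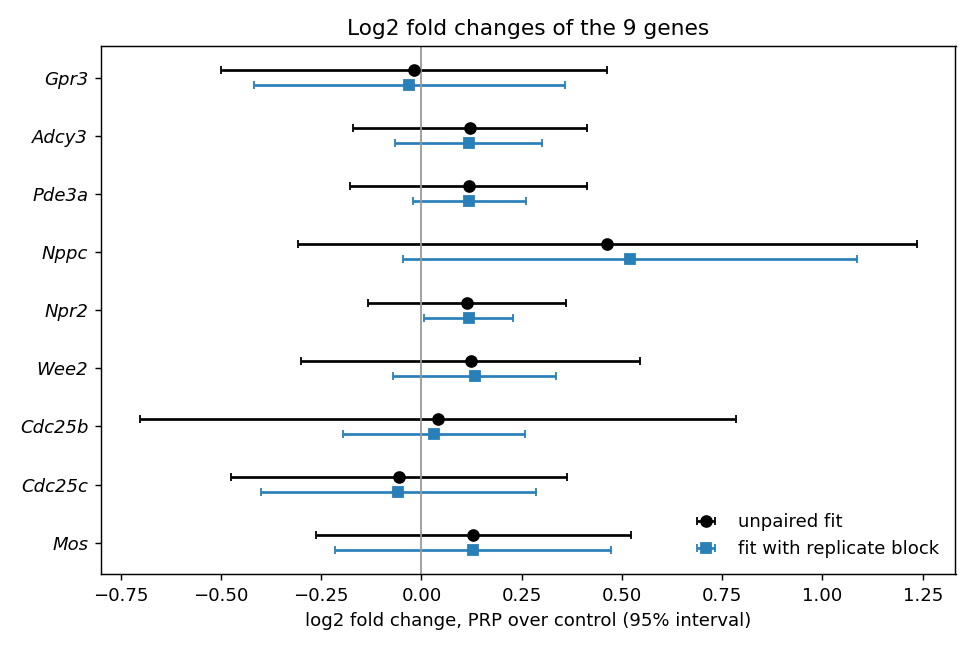
Log2 fold change of PRP over control for each gene (horizontal axis) with its 95% interval, from the unpaired fit (black circles) and the fit with the replicate block (blue squares). All 9 unpaired intervals span 0, and of the blocked intervals Npr2's alone lies above 0.

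Gpr3 (Entrez 14748, chromosome 4, 133209340 to 133212536, minus strand), the receptor that keeps oocyte cAMP high, was expressed at a low level. It measured 6.65, 4.39 and 5.46 CPM in PRP 1 to 3, against 6.16, 5.66 and 4.88 CPM in control 1 to 3. The highest and the lowest of the 6 values were both PRP libraries. Its log2 fold change was -0.018 ± 0.213 (SE, n = 3 per group), with a 95% interval of -0.50 to 0.46. It turned to 0.12 without PRP 2 and to 0.059 without control 1. Gpr3 was read by 159 to 242 counts in PRP and 172 to 221 in control, which gives a counting error of 6.43% to 7.93% per library. Annotated exons of Cd164l2, on the opposite strand, cover 204 bases (7.46%) of the exons of Gpr3, and Cd164l2 itself had 3197 to 3519 counts in PRP and 2774 to 3347 in control. The strand setting of the counting is not given in the sources used here, so reads in that stretch can belong to either gene.

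Adcy3 (Entrez 104111, chromosome 12, 4133116 to 4213525, plus strand) encodes the adenylate cyclase through which GPR3 signalling raises cAMP in rodent oocytes. Its level was 24.9, 24.4 and 31.2 CPM in PRP 1 to 3 and 23.7, 22.8 and 27.7 CPM in control 1 to 3. Library 3 was the highest of its group in both groups, and PRP lay above control within each number. The log2 fold change was 0.12 ± 0.13 (95% interval -0.17 to 0.41), and with the block it was 0.12 ± 0.09 (adjusted p = 0.666 in edgeR). Without PRP 3 the unpaired value was -0.0013. Cenpo, on the opposite strand, shares 22.1% of the exon bases of Adcy3, so the count of Adcy3 is uncertain in the same way.

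Pde3a (Entrez 54611, chromosome 6, 141249269 to 141506862, plus strand), the cAMP phosphodiesterase of the oocyte that cGMP inhibits, was counted well. It had 73.0, 55.7 and 67.9 CPM in PRP 1 to 3, against 71.0, 55.5 and 54.6 CPM in control 1 to 3. Pairs 1 and 2 were near equal, with log2 differences of 0.040 and 0.0049, and pair 3 gave 0.31. The log2 fold change was 0.12 ± 0.13, with an interval of -0.18 to 0.41. It ran from 0.035 without PRP 1 to 0.25 without control 1, and with the block it was 0.023 without replicate 3. Gm28523, on the opposite strand, shares 5.82% of its exon bases. Per length, the ratio of Pde3a to Adcy3 was 1.21 ± 0.20 in PRP and 1.21 ± 0.25 in control (SD, n = 3).

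Nppc (Entrez 18159, chromosome 1, 86666293 to 86670573, minus strand), the ligand gene, showed the largest log2 fold change of the 9 and the widest interval. It measured 3.05, 2.40 and 3.35 CPM in PRP 1 to 3 and 2.29, 1.23 and 2.87 CPM in control 1 to 3. PRP was higher in each pair, by 0.41, 0.97 and 0.23 on the log2 scale, yet PRP 2 lay within the range of the control libraries. The unpaired log2 fold change was 0.46 ± 0.34 (95% interval -0.31 to 1.24), and the blocked one was 0.52 ± 0.27 (edgeR adjusted p = 0.49). Control 2 had 44 counts, with a 95% Poisson interval of 31.97 to 59.1 that covers counting error only, and PRP 2 had 87 (69.7 to 107). The log2 fold change was 0.19 without control 2 and 0.74 without control 3, and neither passed. Nppc is made by the mural granulosa cells of growing mouse follicles. Of 12 granulosa markers 7 had a log2 fold change above 0 (median 0.05), and 0 were higher and 3 lower in PRP in every pair. Their summed level was 1433 to 1614 CPM in PRP and 1489 to 1585 CPM in control.

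Npr2 (Entrez 230103, chromosome 4, 43629015 to 43651437, plus strand) encodes the guanylate cyclase receptor for the Nppc peptide. Its level was 94.3, 83.6 and 103 CPM in PRP 1 to 3, against 85.4, 75.3 and 98.4 CPM in control 1 to 3. Library 2 was lowest and library 3 highest in both groups, and PRP stood above control in every pair, by 0.060 to 0.15 on the log2 scale. Npr2 averaged 93.5 ± 9.5 CPM in PRP and 86.4 ± 11.6 CPM in control (SD, n = 3). The unpaired log2 fold change was 0.11 ± 0.11, with an interval of -0.13 to 0.36. With the block the interval was 0.0061 to 0.23, an unadjusted p of 0.0399 that became an adjusted p of 0.417 over all genes in edgeR. The blocked unadjusted p was 0.122 without replicate 1 and 0.166 without replicate 2. The unpaired value was 0.026 without control 2, 0.043 without PRP 3, 0.19 without PRP 2 and 0.22 without control 3. Per length, Npr2 exceeded Nppc 7.17-fold ± 0.53 in PRP and 9.91-fold ± 3.31 in control (SD, n = 3). The ratio was highest in control 2, at 13.7, the library with the least Nppc.

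**Figure D3:**
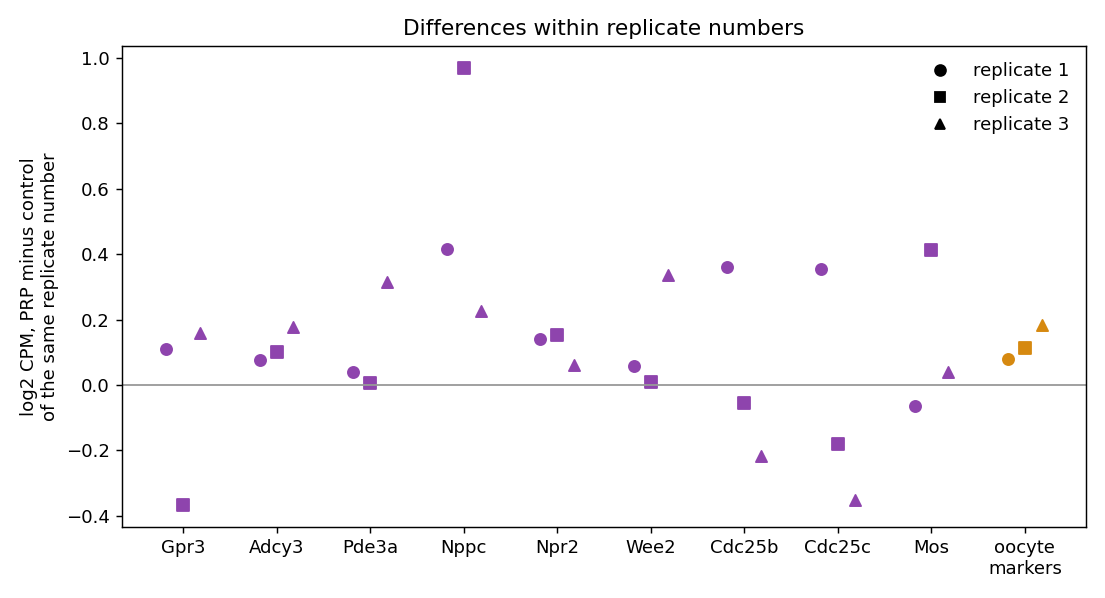
Log2 CPM in PRP minus control of the same replicate number (vertical axis) for each gene, with symbols for replicates 1 to 3, and in orange the same difference for the mean of 17 oocyte markers. Adcy3, Pde3a, Nppc, Npr2 and Wee2 lie above 0 in all 3 pairs, as the marker mean does, while Gpr3, Cdc25b, Cdc25c and Mos lie on both sides. Taken singly, 11 of the 17 markers were higher in PRP in every pair and 1 was lower in every pair.

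Wee2 (Entrez 381759, chromosome 6, 40435246 to 40466815, plus strand) encodes the oocyte kinase that holds CDK1 inactive. It was present at 29.4, 21.4 and 22.5 CPM in PRP 1 to 3 and at 28.2, 21.3 and 17.9 CPM in control 1 to 3. Pairs 1 and 2 differed little, and control 3 was the lowest library of all. Its log2 fold change was 0.12 ± 0.19 (95% interval -0.30 to 0.55), and it was -0.017 without control 3 and -0.031 without PRP 1. The replicate number took 84.2% of the variance of Wee2 over the 6 libraries, against a median of 55.7% over all genes tested. Its share was 83.65% for Adcy3 and 83.3% for Npr2.

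Cdc25b (Entrez 12531, chromosome 2, 131186436 to 131198511, plus strand), the phosphatase gene that mouse oocytes need to resume meiosis and that dividing somatic cells also use, differed most by replicate number. It had 66.4, 34.6 and 56.2 CPM in PRP 1 to 3, against 51.7, 35.97 and 65.2 CPM in control 1 to 3. Library 2 was lowest in both groups, and the highest library held 1.92 times the lowest. The replicate number took 89.4% of its variance and the treatment 0.164%. Its log2 fold change was 0.040 ± 0.304 without and 0.032 ± 0.101 with the block. The unpaired value was -0.17 without PRP 1, -0.012 without PRP 3 and -0.16 without control 2. Per length, Cdc25b exceeded Wee2 by 1.90, 1.36 and 2.10 times in PRP 1 to 3 and by 1.54, 1.43 and 3.08 times in control 1 to 3. The ratio was highest in control 3, which had the lowest Wee2. Spef1, on the opposite strand, shares 92 exon bases with Cdc25b.

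Cdc25c (Entrez 12532, chromosome 18, 34732993 to 34751564, minus strand), a related phosphatase gene of dividing cells, was the lowest of the 9 per length of merged exon. In mean CPM it stood above Gpr3, Nppc and Mos in both groups. Its values were 9.67, 7.01 and 7.84 CPM in PRP 1 to 3 and 7.56, 7.94 and 9.99 CPM in control 1 to 3. PRP was higher in pair 1 and lower in pairs 2 and 3. The log2 fold change was -0.056 ± 0.186, with an interval of -0.48 to 0.36. It was 0.043 without PRP 2 and 0.077 without control 3. The replicate number took 32.5% of its variance, where the median over all genes tested was 55.7%.

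Mos (Entrez 17451, chromosome 4, 3870658 to 3872105, minus strand), the oocyte MAPK activator, was detected in every library. It measured 7.33, 8.31 and 6.65 CPM in PRP 1 to 3, against 7.67, 6.24 and 6.47 CPM in control 1 to 3. PRP 2 was the highest library and control 2 the lowest, and pair 2 alone differed by more than 0.1 on the log2 scale, at 0.41. The log2 fold change was 0.13 ± 0.17 (95% interval -0.26 to 0.52) in 240 to 301 counts in PRP and 224 to 275 in control. It ran from 0.042 without PRP 2 to 0.22 without control 1.

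The small positive differences were also set against the oocyte markers. After scaling each library to the mean level of the 17 markers, the log2 fold change was -0.0095 for Adcy3, -0.010 for Pde3a, -0.015 for Npr2 and -0.0033 for Wee2. Nppc kept a value of 0.36 and Mos one of 0.030, and Gpr3, Cdc25b and Cdc25c stood at -0.17, -0.11 and -0.21. None of these passed in edgeR. This scaling moved the median of all genes to -0.13, by about as much as it moved the members. Relative to the marker mean, Pde3a stood at -0.93 ± 0.02 on the log2 scale in PRP and at -0.92 ± 0.13 in control (SD, n = 3). For Mos the SD was larger in PRP (0.36) than in control (0.10), and differences in spread were not tested. Npr2 and Nppc act in follicle cells, Adcy3 is also expressed outside the oocyte, and dividing somatic cells also use Cdc25b and Cdc25c. Oocyte marker scaling need not suit these genes, and the share of each cell type in these differences was not tested.

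The other genes of these pathways were represented by 8 lists with 100 distinct genes, of which 98 were in the table and 95 were tested. In the unpaired edgeR fit 0 of the 95 passed in either direction, 56 lay above 0 and 39 below, and the median log2 fold change was 0.01. With the block in robust edgeR 1 passed, Nr4a1, higher in PRP, and 0 passed as lower, where 0.12% of all genes tested passed. With the block in limma-voom or without robust estimation, 0 of the 95 passed. The median of the 9 members stood above those of 7 of the 8 lists, and below that of the cAMP-responsive transcripts. Marker list medians were 0.18 for stromal fibroblasts, 0.17 for surface epithelium, 0.16 for smooth muscle and pericytes and 0.11 for oocytes. They were 0.08 for endothelium, 0.05 for granulosa, -0.14 for leukocytes and -1.91 for erythroid cells. All of these lists were drawn up with earlier results of these data known.

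**Figure D4:**
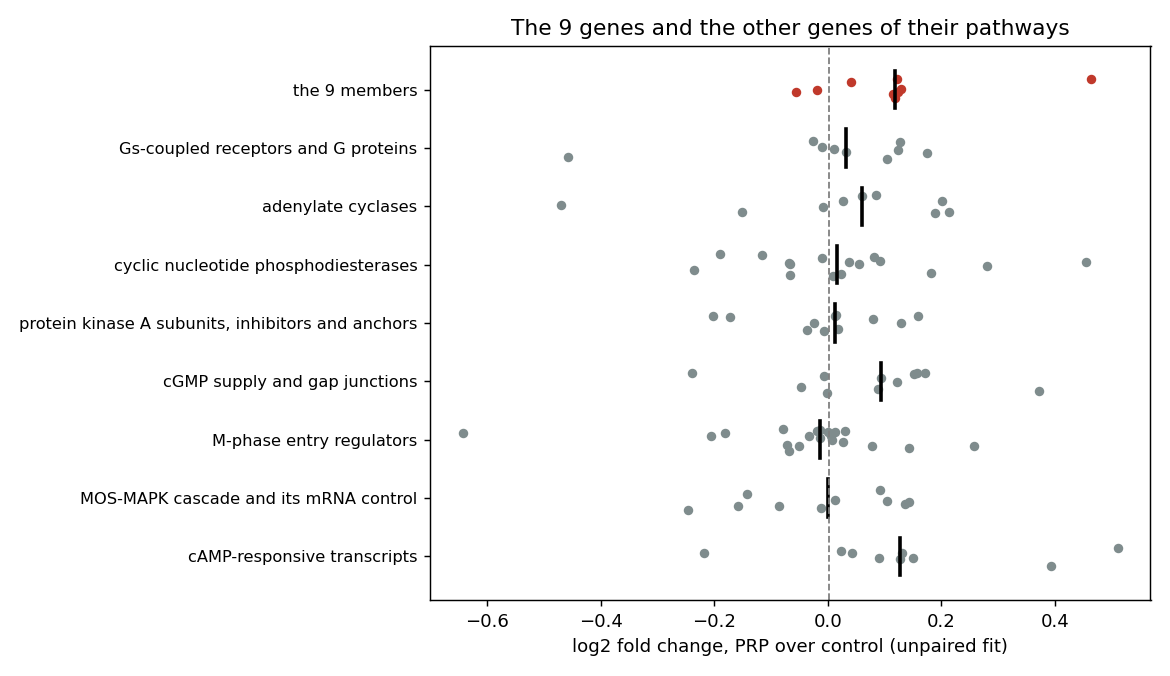
Log2 fold change of PRP over control in the unpaired fit (horizontal axis) for the 9 genes (red) and the tested genes of 8 pathway lists (grey). Black bars mark medians and the dashed line the median of all genes tested, and the list medians run from -0.01 for M-phase entry regulators to 0.13 for cAMP-responsive transcripts.

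On the side of cAMP synthesis, 9 receptors and G proteins were tested, 6 above 0 and 3 below. Gnas, the stimulatory G protein gene, averaged 1109 ± 51 CPM in PRP and 1032 ± 67 CPM in control (SD, n = 3), with a log2 fold change of 0.10 ± 0.06. Of the other 9 adenylate cyclases, 6 lay above and 3 below 0, and Adcy5 and Adcy4 had the smallest p-values, with log2 fold changes of 0.21 ± 0.23 and 0.20 ± 0.23.

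Of 16 other phosphodiesterases tested, 9 lay above and 7 below 0, with a median of 0.02. Pde4a, a cAMP-specific enzyme, measured 4.37, 4.33 and 3.30 CPM in PRP and 2.96, 2.84 and 2.95 CPM in control. Its groups did not overlap, as in 3 of the 95 pathway genes tested and 9.21% of all genes tested. Its log2 fold change was 0.45 ± 0.23, with an unadjusted p of 0.0747 in edgeR. Pde1a, which calcium and calmodulin activate, was lower in PRP in every pair, as were 2852 of all 17475 genes tested. Its log2 fold change was -0.24 ± 0.18. Among protein kinase A genes 6 of 11 lay above 0, the regulatory subunit gene Prkar2a having one of -0.17 ± 0.08 and the inhibitor gene Pkig one of 0.16 ± 0.08.

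Around the cGMP pathway, 7 of 11 genes lay above 0, with a median of 0.09. Npr3, the receptor that clears natriuretic peptides, averaged 9.72 ± 1.72 CPM in PRP and 7.51 ± 1.88 CPM in control, with a log2 fold change of 0.37 ± 0.22 and PRP higher in 3 of 3 pairs. Gucy1a2, a subunit of the nitric oxide receptor cyclase, had one of -0.24 ± 0.14 and was lower in every pair, as were 2852 of all 17475 genes tested. Neither passed with the block (edgeR adjusted p = 0.357 and 0.424).

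For cell division, 9 of 20 M-phase entry regulators lay above 0 and 11 below, with a median of -0.01. Cdc14b, a phosphatase gene of the mitotic exit family, had a log2 fold change of -0.18 ± 0.11, and Fbxo5, an inhibitor of the anaphase-promoting complex, one of -0.21 ± 0.14. In the MOS-MAPK list 5 of 10 lay above 0. Rps6ka3, a ribosomal S6 kinase gene downstream of MAPK, averaged 175 ± 8 CPM in PRP and 196 ± 6 CPM in control. Its groups did not overlap, as in 9.21% of all genes tested. It had the smallest p of the 95 genes without the block (unadjusted p = 0.0257, adjusted p = 0.9998 in edgeR). Map2k2, which encodes a MAPK kinase, was at 0.09 ± 0.06, and its groups did not overlap either.

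Of 9 cAMP-responsive transcripts 8 lay above 0, with a median of 0.13. Whether cAMP or another signal lay behind these values was not tested. Nr4a1, a nuclear receptor gene, averaged 115 ± 42 CPM in PRP and 87.5 ± 28.3 CPM in control, and rose by 0.38 ± 0.06 with the block (edgeR adjusted p = 0.0164). Its unpaired log2 fold change was 0.39 ± 0.36. With the block its adjusted p was 0.0513 in limma-voom, 0.0948 in edgeR without robust estimation, 0.168 without replicate 1 and 0.153 without replicate 2. In blocked robust edgeR it was 0.0309 without replicate 3. With oocyte marker scaling it was 0.0165, where 1945 of all genes tested passed. Ppargc1a, a metabolic coactivator gene, had a log2 fold change of -0.22 ± 0.23.

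Profiles over the 6 libraries were compared by the root mean square difference of mean-centred log2 CPM, among 11164 or 11165 genes of sufficient level. For Npr2 the nearest were Sars2 (0.0120) and Itpripl2 (0.0325), for Pde3a Vcp (0.0224) and Cgnl1 (0.0378), for Adcy3 Mpdu1 (0.0325) and Ccdc102a (0.0366), and Wee2 lay near Chst12 (0.0649). Gpr3 lay nearest to Atpaf2 (0.0427) and Pde2a (0.0485), and Mos to Faap24 (0.0365) and Psmb5 (0.0449). Cdc25b lay nearest to Setbp1 (0.0463) and Adcy7 (0.0554), Cdc25c to Ncapd2 (0.0544) and Prr11 (0.0558), and Nppc to Smim41 (0.128) and Ly6a (0.162). No member was among the 2 nearest genes of another, and the closest couple of members was Adcy3 and Npr2 at 0.0716. The pathway annotation deposited with the counts placed Adcy3, Cdc25c and Mos in oocyte meiosis, a term with 120 genes, and Adcy3, Pde3a, Nppc and Npr2 in cGMP-PKG signalling, with 169.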

How the data were processed

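Raw read counts by gene symbol were deposited as 1 table, on GRCm38/mm10 per the submitters' processing notes. Which aligner, counter, strand setting and annotation were used is not stated in the sources used here. Columns were matched to samples by title. The header of 1 column has letters swapped against its sample title, and it was assigned to PRP 3, the one title without a column.

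The test was run in edgeR 4.0.16 under R 4.3.3 (filterByExpr filtering, TMM, robust quasi-likelihood F test, two-sided), PRP over control, with Benjamini-Hochberg adjustment at 0.05 over 17475 genes. The F statistic gave standard errors and 95% intervals. For CPM, library sizes were multiplied by TMM factors. Alternatives were DESeq2 1.42.0, limma-voom (limma 3.58.1), other scalings and filters, the replicate block and leaving out libraries. The procedure was tested on simulated counts that held no replicate effect, so that test does not bear on the pairing. Pairs of libraries differed beyond counting noise (chi-square per degree of freedom 8.99 to 32.6).

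Both groups carry numbers 1 to 3. Deviations from group means correlated at 0.24, 0.398 and 0.334 between same-numbered libraries and at -0.0221 or below otherwise, so the numbers were taken as pairs, from the data and not from a label. Deviations cancel out within a group, so the negative values follow in part from the calculation and add no separate evidence of pairing. The blocked p-values and intervals rest on the same counts that chose the pairing. Exon lengths came from GENCODE vM21, and gene spans and promoters from RefSeq, all on GRCm38. Members and lists were chosen with earlier results of these data known. Named genes were all 9 members, the 2 genes with the smallest unadjusted p per pathway list, any passing gene, marker checks (Ddx4, Zp3, Foxl2, Amh, Hbb-bs), and the 2 nearest profiles per member. Results for 2 genes that this rule names are not reported here.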

Additional observations from a re-analysis of the deposited data

How the results depend on the processing

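None of the 9 genes passed in any of the 22 alternatives (other scalings, filters and tools, the replicate block and its variants, each library left out), and the smallest adjusted p was 0.398, for Nppc, with the block and oocyte marker scaling. Nppc alone kept its direction in all 22, from 0.19 to 0.74. Of all genes tested, 0 passed without the block (557 at an unadjusted p under 0.05), 5 with oocyte marker scaling, 21 with the replicate block in robust edgeR, 0 with the block in limma-voom (1961 at an unadjusted p under 0.05) or without robust estimation (1901), and 1945 with the block and that scaling (1922 of them lower), which moves the median of all genes to -0.12. With the block, 3 passed without replicate 1, 1 without replicate 2 and 19 without replicate 3. Of the pathway genes, 1 passed with the block in robust edgeR and 0 in its other 2 forms, 9 with the block and that scaling, and 1 with the block and without replicate 3. Oocyte marker scaling turned Adcy3 to -0.0095, Pde3a to -0.010, Npr2 to -0.015, Wee2 to -0.0033 and Cdc25b to -0.11, and with the block Adcy3 to -0.0093, Pde3a to -0.0064, Npr2 to -0.0091 and Cdc25b to -0.095. With the block, Cdc25b turned to -0.14 without replicate 1. Gpr3 turned to 0.13, Cdc25c to 0.0019 and Mos to -0.014 without replicate 2, and Cdc25c to 0.091 without replicate 3. Leaving out single libraries gave -0.18 to 0.12 for Gpr3, -0.0013 to 0.21 for Adcy3, 0.035 to 0.25 for Pde3a, 0.026 to 0.22 for Npr2, 0.042 to 0.22 for Mos, -0.031 to 0.32 for Wee2, -0.17 to 0.27 for Cdc25b and -0.19 to 0.077 for Cdc25c. The cause was not tested. Nppc, at 44 to 121 counts per library, was the gene most limited by depth.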
